A study of Mus musculus with 18 samples.

Results

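The potassium channel gene family was followed here across direct reprogramming of mouse heart fibroblasts towards cardiomyocytes. Its members were all probe sets that named a single gene whose symbol begins with Kcn, with 1 probe set per gene, the one with the highest mean over the 18 arrays. This gave 92 genes of the 19912 measured, from 95 probe sets. By what their products are known to be, 35 encode voltage-gated pore subunits, 15 inward rectifiers, 14 two-pore-domain channels and 8 pores gated by calcium or sodium. A further 12 encode accessory subunits of voltage-gated channels and 4 those of calcium-activated channels, 3 are antisense or opposite-strand RNAs, and Kcnrg encodes a regulator.

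RNA was hybridised to Affymetrix mouse Gene 1.0 ST arrays in 6 groups of 3 arrays, all from CD1 mice. The groups were GFP+ induced cardiomyocyte-like cells (iCMs) at 4 weeks and at 2 weeks, GFP- cells in which reprogramming failed at the same times, neonatal cardiomyocytes (CM) and neonatal cardiac fibroblasts (CF). The labels name neither the reprogramming factors nor the promoter that drives GFP, give an age only as neonatal, and do not say whether animals were pooled. From knowledge of the published work, and not from the labels, the factors were Gata4, Mef2c and Tbx5 and GFP was driven by the Myh6 promoter, so the GFP+ gate itself selects cells with an active cardiomyocyte promoter. The submitters describe the 3 arrays in each group as biological replicates. No label says whether they came from separate cultures, so p-values measure only the spread between these arrays, and what that spread covers is not known.

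Potassium channels let potassium leave the cell and so repolarise it. In heart muscle, inward rectifiers hold the resting potential, transient outward and delayed rectifier channels end the action potential, and muscarinic and ATP-sensitive channels tie excitability to vagal tone and to metabolism. Pore subunits assemble as tetramers, or as dimers in the two-pore-domain class, and accessory subunits set their gating and their traffic to the membrane.

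The values are log2 signals, and a group mean was taken as not above background when it lay under 6.157 log2, which is the 25th percentile of the array where that percentile was lowest. A difference that rests on such a mean is a lower bound and is given as "at least". The probe sets of 5 members were below this limit in all 6 groups. Array medians lay between 7.32 and 7.44 log2, and arrays of a group correlated at r = 0.990 to 0.996 across genes. Precision is limited by having 3 arrays a group. Cardiomyocyte markers (10 genes, mean per array) reached 11.95 to 12.08 log2 in 4-week iCMs, 11.24 to 11.65 in 2-week iCMs, 8.17 to 8.35 in 4-week GFP- cells, 8.21 to 8.55 in 2-week GFP- cells, 13.03 to 13.07 in CM and 7.33 to 7.44 in CF. Macrophage markers (15 genes) were high in the arrays labelled as fibroblasts: 9.18 to 9.30 log2 in 4-week iCMs, 9.59 to 9.98 in 2-week iCMs, 12.01 to 12.14 in 4-week GFP- cells, 12.10 to 12.12 in 2-week GFP- cells, 6.54 to 6.75 in CM and 11.72 to 11.98 in CF. Fibroblast markers (10 genes) stood at 9.67 to 9.98 log2 in CM and at 10.87 to 11.23 in CF. In such bulk samples, fewer cells of a type and less RNA per cell cannot be told apart.

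Of the 92 members, 55 were called in at least 1 of the 11 comparisons between pairs of groups (limma, adjusted p under 0.05) and 37 in none. The range of the 6 group means was at least 1 log2 for 27 members and at least 2 log2 for 9. In CM against CF 37 members were called (40.2%, against 41% of all genes), 26 higher and 11 lower (28.3% and 12%, against 19.6% and 21.5% of all genes). Between 4-week iCMs and 4-week GFP- cells 26 were called (28.3%, against 34.2% of all), 18 higher and 8 lower (19.6% and 8.7%, against 17.2% and 17.1% of all). At 2 weeks the same comparison called 24 (26.1%, against 34.5% of all), 15 higher and 9 lower (16.3% and 9.78%, against 16.2% and 18.4% of all). Against CF, 4-week iCMs had 29 called (31.5%, against 29.5% of all), 17 higher and 12 lower (18.5% and 13%, against 14.3% and 15.2% of all). Against CF, 2-week iCMs had 32 called (34.8%, against 33.3% of all), 20 higher and 12 lower (21.7% and 13%, against 17.4% and 15.8% of all). Against CM, 4-week iCMs had 30 called (32.6%, against 35.1% of all), 7 higher and 23 lower (7.61% and 25%, against 19% and 16.1% of all). Against CM, 2-week iCMs had 31 called (33.7%, against 42.1% of all), 8 higher and 23 lower (8.7% and 25%, against 22.7% and 19.4% of all). In each of these comparisons the share called lower in the CM or iCM arrays was below that of all genes, except against CM, where the share called higher was below it. These differences in share were not tested.

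The acetylcholine-gated channel of atrial and nodal muscle, a tetramer of the products of Kcnj3 and Kcnj5, rose in both subunits in iCMs against GFP- cells. The 250 bases before the start that the RefSeq promoter table gives each gene are shown for the pair, for Kcna4, which moved with them, and for Kcnj2, which moved the other way (RefSeq, GRCm38.p6, gene strand, 5′ to 3′). Windows were at chr2:55435720-55435969 on the plus strand for Kcnj3, chr9:32344345-32344594 on the minus strand for Kcnj5, chr2:107290339-107290588 on the plus strand for Kcna4 and chr11:111065914-111066163 on the plus strand for Kcnj2. Capitals mark matches, on either strand, to a GATA motif spelled AGATAA in its main form, AGATAG with another last base, TGATAA with another first base or TGATAG with both, to the T-box core AGGTGT or to the MEF2 consensus, the motif classes of the factors named above.
Kcnj3: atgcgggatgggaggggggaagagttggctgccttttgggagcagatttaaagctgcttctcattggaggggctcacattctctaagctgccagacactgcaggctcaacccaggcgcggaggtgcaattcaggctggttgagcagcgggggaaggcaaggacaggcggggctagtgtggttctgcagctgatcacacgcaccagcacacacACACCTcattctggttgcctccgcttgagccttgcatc
Kcnj5: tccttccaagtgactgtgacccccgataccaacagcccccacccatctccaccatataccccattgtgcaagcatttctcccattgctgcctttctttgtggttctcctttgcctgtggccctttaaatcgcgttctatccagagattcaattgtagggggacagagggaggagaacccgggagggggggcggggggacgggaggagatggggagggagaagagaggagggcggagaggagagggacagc
Kcna4: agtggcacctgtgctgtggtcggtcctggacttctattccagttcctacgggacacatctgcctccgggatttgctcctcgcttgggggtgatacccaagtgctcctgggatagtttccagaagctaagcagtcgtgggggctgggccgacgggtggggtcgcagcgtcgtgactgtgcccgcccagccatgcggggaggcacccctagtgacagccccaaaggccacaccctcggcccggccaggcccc
Kcnj2: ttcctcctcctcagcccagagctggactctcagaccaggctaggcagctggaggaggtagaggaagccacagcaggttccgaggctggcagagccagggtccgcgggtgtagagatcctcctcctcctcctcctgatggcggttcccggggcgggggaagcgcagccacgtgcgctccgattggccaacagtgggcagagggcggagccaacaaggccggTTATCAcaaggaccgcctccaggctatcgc
The gene annotation places the outermost start of Kcnj3 further upstream, at position 55411798, so its window lies inside the annotated gene, before a start within it. The outermost start of Kcnj5, at position 32344380, lies inside its window, while the windows of Kcna4 and Kcnj2 end next to the annotated gene starts. Kcnj3 had 1 T-box match and Kcnj2 1 GATA match, and no other match lay in these windows. Of all 32851 windows of this length, 26.5% held a GATA match, 11.8% a T-box match and 2.92% a MEF2 match, against 17.9%, 15.8% and 2.11% of the 95 windows of Kcn genes, which cover 70 of the 92 members. The matches are letters in a window, not sites shown to be bound.

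Kcnj5 was called higher in iCMs at both times. Its 3 arrays read 9.16, 9.57 and 9.20 log2 in 4-week iCMs and 8.43, 8.74 and 8.67 in 2-week iCMs, against 6.42, 6.95 and 7.03 in 4-week GFP- cells and 6.86, 7.02 and 6.60 in 2-week GFP- cells. CM arrays read 8.86, 8.90 and 8.85 log2 and CF arrays 6.45, 6.46 and 6.50. No iCM array overlapped a GFP- or CF array. The difference to GFP- cells was 2.51 ± 0.14 log2 at 4 weeks (mean difference ± SE, n = 3 each, 5.69-fold, adjusted p = 2.62e-11) and 1.79 ± 0.14 at 2 weeks (adjusted p = 4.1e-09). CM exceeded CF by 2.40 ± 0.14 log2 (adjusted p = 2.46e-11). At 4 weeks iCMs were above CM by 0.44 ± 0.14 log2 (adjusted p = 0.0219), a call lost without iCM replicate 2 (adjusted p = 0.143), without CM replicate 1 (0.0532), without CM replicate 3 (0.0586) and with quantile normalization (0.0515).

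Kcnj3, the other subunit, was higher in iCMs mainly at 4 weeks. It read 8.60, 8.67 and 7.69 log2 in 4-week iCMs and 6.90, 7.56 and 6.96 in 2-week iCMs, against 6.67, 6.54 and 6.61 in 4-week GFP- cells and 6.44, 6.68 and 6.60 in 2-week GFP- cells. The CM arrays stood at 8.84, 9.43 and 9.54 log2 and the CF arrays at 6.54, 6.55 and 6.30. The 4-week iCM arrays lay between the 2 sets, with replicate 3 the lowest. iCMs exceeded GFP- cells by 1.71 ± 0.22 log2 at 4 weeks (3.27-fold, adjusted p = 2.31e-06) and by 0.57 ± 0.22 at 2 weeks (adjusted p = 0.0479). The 2-week call rested on replicate 2 of the iCMs (0.36 log2 without it, adjusted p = 0.263), and it was also lost without GFP- replicate 1 (0.143), 2 (0.0602) or 3 (0.0865). Kcnj3 stayed 0.95 ± 0.22 log2 under CM at 4 weeks (adjusted p = 0.00148) and 2.13 ± 0.22 under CM at 2 weeks (adjusted p = 8.77e-08). Between 2 and 4 weeks iCMs gained 1.18 ± 0.22 log2 of Kcnj3 (adjusted p = 0.00154) and 0.69 ± 0.14 of Kcnj5 (adjusted p = 0.00383).

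Genes outside the family that work with this channel did not all follow it. Rgs6, which speeds G protein deactivation at the channel, read 8.03, 8.46 and 8.0 log2 in 4-week iCMs, against 5.53, 5.56 and 5.74 in 4-week GFP- cells, and 8.04, 8.11 and 7.75 in CM, against 5.72, 5.83 and 5.68 in CF. It was at least 4.01-fold higher in 4-week iCMs than in GFP- cells (adjusted p = 3.33e-12), and 4-week iCMs differed from CM by 0.19 ± 0.13 log2 (adjusted p = 0.295). Gnao1, a G protein alpha subunit, averaged 9.48 ± 0.31 log2 (SD, n = 3) in 4-week iCMs against 7.54 ± 0.16 in 4-week GFP- cells (adjusted p = 1.37e-09), and 9.66 ± 0.22 in CM. Gnb5, the partner of Rgs6, was higher than in GFP- cells by 0.58 ± 0.09 log2 (adjusted p = 4.67e-05). Gnai2, another alpha subunit, was lower instead, at 11.67 ± 0.02 log2 in 4-week iCMs against 12.36 ± 0.10 in 4-week GFP- cells. At 2 weeks its difference was -0.52 ± 0.08 log2 (adjusted p = 5.18e-05), and it averaged 11.19 ± 0.17 in CM against 12.24 ± 0.01 in CF. The muscarinic receptor Chrm2, which opens the channel through its G protein, did not follow: 7.84, 7.77 and 7.31 log2 in 4-week iCMs, against 10.46, 10.50 and 10.36 in CM. It was 6.95-fold lower than in CM (adjusted p = 6.3e-12) and 0.42 ± 0.14 log2 above 4-week GFP- cells (adjusted p = 0.0283). Of the 24 measured genes in the list of partners and regulators, 11 were higher and 2 lower in 4-week iCMs than in 4-week GFP- cells (17.2% and 17.1% of all genes), and 3 higher and 7 lower than in CM (19% and 16.1% of all).

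**Figure D1:**
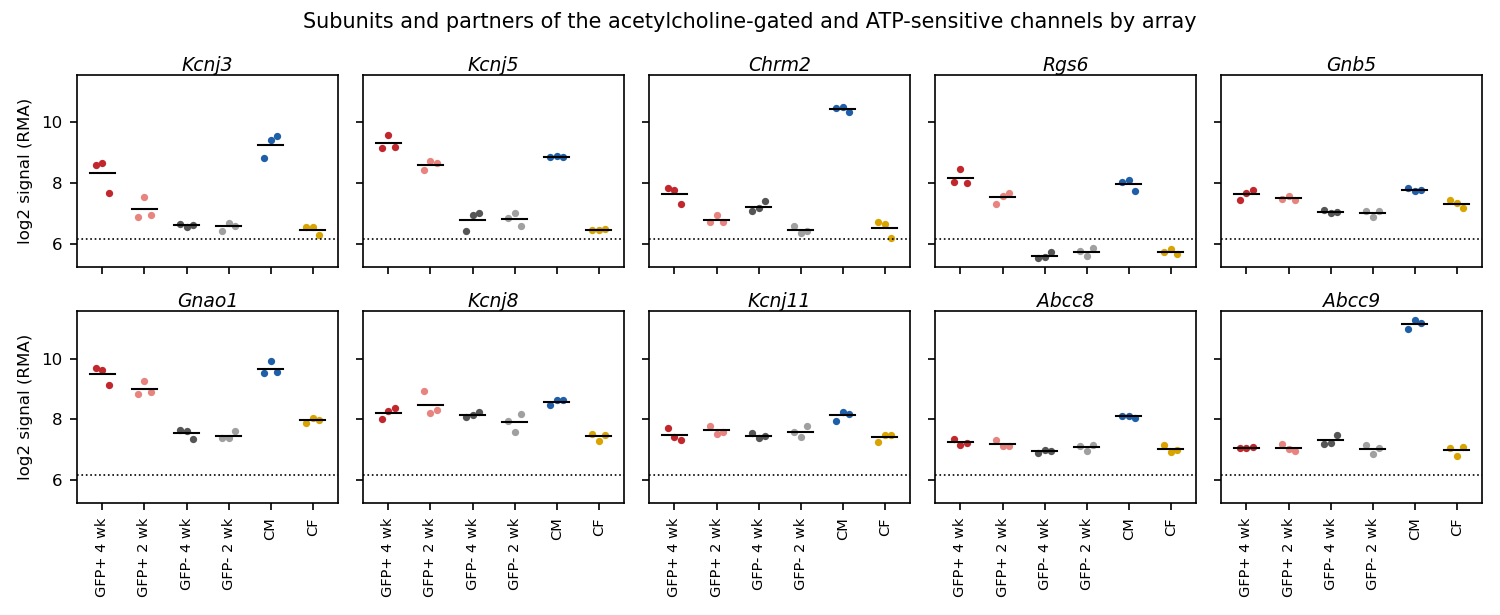
Log2 signal per array (points) and group mean (bars) for Kcnj3, Kcnj5 and partners of the acetylcholine-gated channel, and for the pores Kcnj8 and Kcnj11 and the receptors Abcc8 and Abcc9 of the ATP-sensitive channel, in GFP+ iCMs and GFP- cells at 4 and 2 weeks, CM and CF, with 3 arrays each. The dotted line is the background limit of 6.157 log2. In 4-week iCMs the Kcnj5 arrays lie above those of CM, and the Rgs6 and Gnao1 arrays overlap them, while Chrm2 and Abcc9 stand apart in CM.

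ATP-sensitive channels join pores of Kcnj8 or Kcnj11 to a sulphonylurea receptor, Abcc8 or Abcc9. Kcnj8 averaged 8.22 ± 0.19 log2 in 4-week iCMs, 8.49 ± 0.39 in 2-week iCMs, 8.15 ± 0.08 in 4-week GFP- cells, 7.90 ± 0.30 in 2-week GFP- cells, 8.58 ± 0.10 in CM and 7.44 ± 0.12 in CF (SD, n = 3 each). It exceeded CF by 0.78 ± 0.16 log2 in 4-week iCMs (adjusted p = 0.000683) and also by 0.72 ± 0.16 in 4-week GFP- cells (adjusted p = 0.00459), and at 4 weeks iCMs and GFP- cells differed by 0.07 log2 (95% interval -0.27 to 0.40). Its rise against CF was thus measured in both sorted populations at 4 weeks. At 2 weeks iCMs exceeded GFP- cells by 0.59 ± 0.16 log2 (adjusted p = 0.00605), and GFP- cells exceeded CF by 0.46 ± 0.16 (adjusted p = 0.0466). Kcnj11 was higher in CM than in CF by 0.71 ± 0.12 log2 (adjusted p = 5.51e-05), and 4-week iCMs stood 0.64 ± 0.12 below CM (adjusted p = 0.000216) and 0.02 from GFP- cells (interval -0.23 to 0.27). Abcc8 averaged 7.24 ± 0.10 log2 in 4-week iCMs, 6.94 ± 0.06 in 4-week GFP- cells, 8.09 ± 0.04 in CM and 7.02 ± 0.10 in CF. Abcc9, the receptor of heart muscle and of vascular smooth muscle, read 7.04, 7.06 and 7.09 log2 in 4-week iCMs, against 10.99, 11.27 and 11.18 in CM (16.9-fold lower, adjusted p = 3.66e-16). Endothelial markers were also higher in CM than in CF, 10 of 10 genes, at 8.58 to 8.73 log2 in CM arrays and 6.81 to 6.90 in CF arrays, and pericytes express Abcc9 and Kcnj8. Smooth muscle and pericyte markers stood at 8.89 to 9.15 log2 in CM and at 8.23 to 8.51 in CF. That list of 10 genes includes Abcc9 itself, so its level is partly that of Abcc9. Of its genes, 6 were higher and 3 lower in CM than in CF (19.6% and 21.5% of all genes). The part of these cell types in the differences was not tested.

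Kcnj2, the main pore of the resting inward rectifier of ventricular muscle, had the largest fall of all 92 members in iCMs against GFP- cells at both times. It read 6.85, 6.75 and 6.80 log2 in 4-week iCMs and 5.87, 6.35 and 5.92 in 2-week iCMs, against 8.71, 8.61 and 8.30 in 4-week GFP- cells and 8.23, 8.39 and 7.96 in 2-week GFP- cells. CM arrays read 8.48, 8.60 and 8.61 log2 and CF arrays 8.28, 8.38 and 8.30. The 6 iCM arrays thus lay below all 12 others. At 4 weeks iCMs were 1.74 ± 0.13 log2 below GFP- cells (3.34-fold, adjusted p = 1.06e-09), and 1.76 ± 0.13 below CM (adjusted p = 8.76e-10). At 2 weeks their mean was not above background, and they were at least 4.10-fold lower than GFP- cells (adjusted p = 6.11e-11) and at least 5.30-fold lower than CM (adjusted p = 3.63e-12). Between 2 and 4 weeks Kcnj2 rose at least 1.56-fold in iCMs (adjusted p = 8e-04). CM and CF differed by 0.24 log2 (interval -0.03 to 0.51, adjusted p = 0.148), and were called apart with quantile normalization (0.37 log2, adjusted p = 0.0243) and when only these groups were fitted (adjusted p = 0.0417). Macrophage markers were lower in iCMs than in GFP- cells too, 15 of 15 at both times, and lower in CM than in CF, also 15 of 15. Their part in the Kcnj2 differences was not tested.

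The other strong inward rectifiers of heart muscle differed less between iCMs and GFP- cells. Kcnj12, a second pore of this current, averaged 7.43 ± 0.18 log2 in 4-week iCMs, 7.18 ± 0.21 in 2-week iCMs, 7.08 ± 0.08 in 4-week GFP- cells, 7.11 ± 0.19 in 2-week GFP- cells, 7.81 ± 0.11 in CM and 7.03 ± 0.05 in CF. CM exceeded CF by 0.78 ± 0.12 log2 (adjusted p = 1.21e-05). The 4-week iCMs exceeded GFP- cells by 0.35 ± 0.12 (adjusted p = 0.0239), a call lost without iCM replicate 1 (adjusted p = 0.138) or GFP- replicate 3 (0.0909). Kcnj4 and Kcnj14, the remaining pores of this class, passed no test between CM and CF (0.25 ± 0.12 and 0.15 ± 0.17 log2, adjusted p = 0.0914 and 0.542) or between 4-week iCMs and GFP- cells (0.12 ± 0.12 and 0.21 ± 0.17 log2). Kcnj4 was called in CM against CF once CM replicate 3 was left out (0.34 log2, adjusted p = 0.036).

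**Figure D2:**
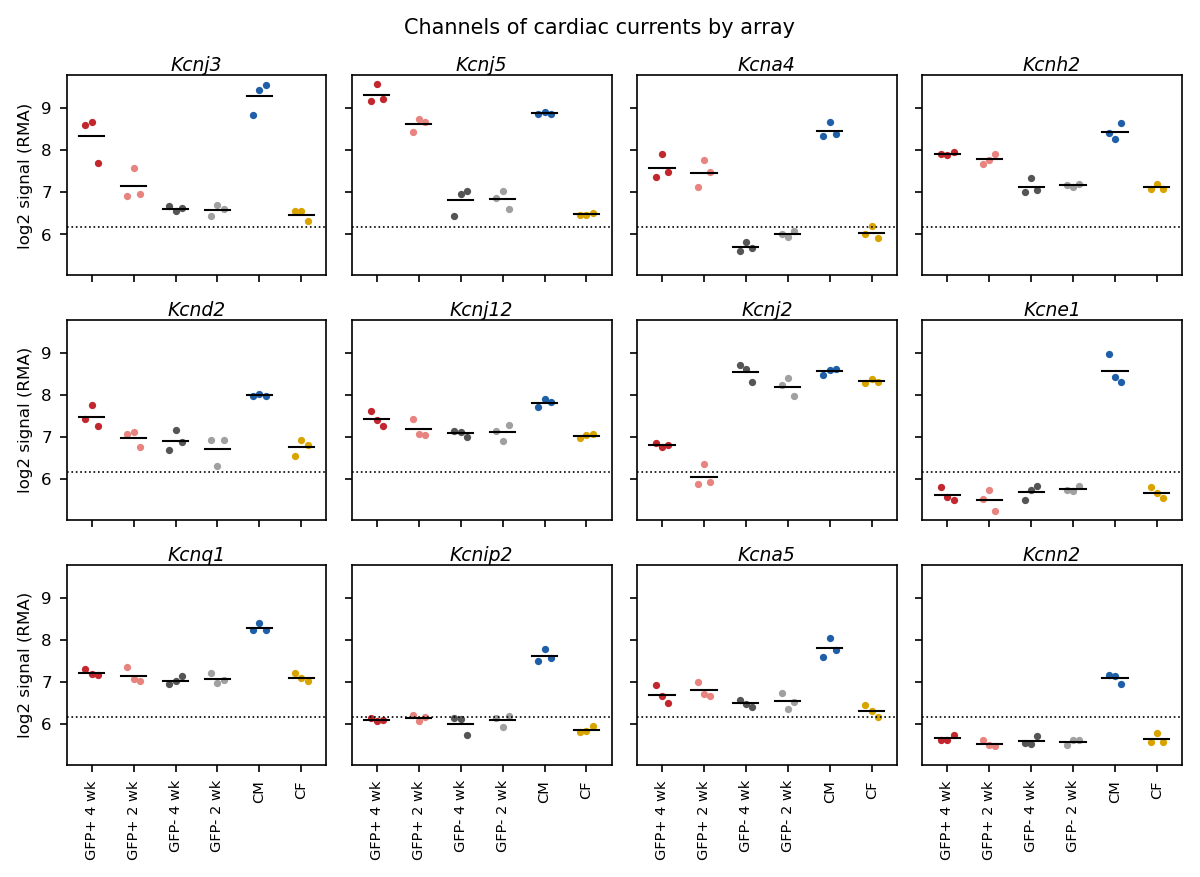
Log2 signal per array (points) and group mean (bars) for 12 channel genes of cardiac currents in GFP+ iCMs and GFP- cells at 4 and 2 weeks, CM and CF, with 3 arrays each and the background limit of 6.157 log2 dotted. Kcnj5, Kcna4 and Kcnh2 are high in both iCM groups, Kcnj2 is low in iCMs alone, and Kcne1, Kcnip2 and Kcnn2 stand above the limit in CM alone.

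The transient outward current starts repolarisation. Its pores are Kcnd2 and Kcnd3 (fast) and Kcna4 (slow), and Kcnip2 encodes the calcium-binding accessory subunit of the fast pores. Kcna4 read 7.36, 7.91 and 7.47 log2 in 4-week iCMs and 7.11, 7.75 and 7.47 in 2-week iCMs, against 5.59, 5.82 and 5.66 in 4-week GFP- cells and 6.0, 5.92 and 6.08 in 2-week GFP- cells. Its CM arrays read 8.33, 8.67 and 8.37 log2 and its CF arrays 6.0, 6.2 and 5.90. GFP- and CF means were not above background, and no iCM array overlapped them. It was at least 2.68-fold higher than GFP- cells at 4 weeks (adjusted p = 3.49e-09), at least 2.44-fold at 2 weeks (adjusted p = 1.56e-07), and 0.88 ± 0.15 log2 below CM at 4 weeks (adjusted p = 8.62e-05).

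The fast pore Kcnd2 read 7.42, 7.76 and 7.26 log2 in 4-week iCMs, against 6.68, 7.16 and 6.88 in 4-week GFP- cells, and 7.98, 8.03 and 7.96 in CM, against 6.55, 6.93 and 6.81 in CF. The difference between iCMs and GFP- cells was 0.57 ± 0.17 log2 at 4 weeks (adjusted p = 0.00995), lost without iCM replicate 2 (adjusted p = 0.0683) or GFP- replicate 1 (0.0644), and 0.26 ± 0.17 at 2 weeks (adjusted p = 0.261). Kcnd3 passed no test in either setting (0.13 ± 0.10 log2 in CM against CF, 0.14 ± 0.10 in 4-week iCMs against GFP- cells). Kcnip2 read 6.15, 6.06 and 6.10 log2 in 4-week iCMs, against 7.50, 7.77 and 7.57 in CM (at least 2.74-fold lower, adjusted p = 6.39e-10). Its means were not above background in iCMs, GFP- cells and CF. Of the 4 genes of the current, 3 were higher in CM than in CF (19.6% of all genes), and 2 were higher in 4-week iCMs than in GFP- cells (17.2% of all).

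Kcnh2, the pore of the rapid delayed rectifier, read 7.90, 7.88 and 7.94 log2 in 4-week iCMs and 7.66, 7.76 and 7.91 in 2-week iCMs, against 7.01, 7.33 and 7.04 in 4-week GFP- cells and 7.17, 7.11 and 7.19 in 2-week GFP- cells. CM arrays read 8.39, 8.26 and 8.64 log2 and CF arrays 7.07, 7.18 and 7.08. All 6 iCM arrays lay between these sets without overlap. The difference to GFP- cells was 0.78 ± 0.10 log2 at 4 weeks (adjusted p = 3.73e-06) and 0.62 ± 0.10 at 2 weeks (adjusted p = 5.99e-05), and iCMs stayed 0.52 ± 0.10 below CM at 4 weeks (adjusted p = 0.000377). Kcne2, an accessory subunit assigned to this channel, differed by 0.15 ± 0.13 log2 between 4-week iCMs and GFP- cells (adjusted p = 0.428) and by 0.19 ± 0.13 between CM and CF (adjusted p = 0.255).

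The slow delayed rectifier, whose pore is Kcnq1 and whose accessory subunit is Kcne1, was not raised in iCMs by these probe sets. Kcne1 read 5.81, 5.57 and 5.50 log2 in 4-week iCMs and 5.53, 5.74 and 5.24 in 2-week iCMs, against 8.97, 8.42 and 8.30 in CM. Its mean was below the background limit in all groups but CM, where it was at least 5.30-fold higher than in 4-week iCMs (adjusted p = 6.6e-12) and in CF (adjusted p = 3.1e-12). Kcnq1 averaged 7.22 ± 0.07 log2 in 4-week iCMs, against 7.03 ± 0.09 in 4-week GFP- cells (0.19 log2, interval -0.02 to 0.40, adjusted p = 0.158). Against CM, where it averaged 8.28 ± 0.09 log2, 4-week iCMs were lower by 1.06 ± 0.10 (adjusted p = 3.26e-08). Kcna5, the pore of the ultrarapid delayed rectifier, read 6.93, 6.66 and 6.49 log2 in 4-week iCMs, against 7.58, 8.05 and 7.75 in CM (-1.10 ± 0.14, adjusted p = 1.49e-06). It differed from 4-week GFP- cells by 0.21 ± 0.14 log2 (adjusted p = 0.269). Kcnab1, an accessory beta subunit of such pores, belonged to CF instead and is described with the other genes of that group.

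Small-conductance calcium-activated channels and the background channels of the two-pore-domain class ended the list of cardiac currents. The mean of Kcnn2 was below the limit in iCMs, GFP- cells and CF, against 7.16, 7.13 and 6.95 log2 in the CM arrays, and 4-week iCMs were at least 1.90-fold lower than CM (adjusted p = 1.19e-10). Kcnn3 averaged 7.16 ± 0.07 log2 in 4-week iCMs, against 7.59 ± 0.24 in CM (adjusted p = 0.00246), and Kcnn1 passed no test between CM and CF (0.16 ± 0.10 log2, adjusted p = 0.25). Kcnk3, an acid-sensitive background channel, was 0.58 ± 0.13 log2 lower in 4-week iCMs than in CM (adjusted p = 0.00114) and 0.18 ± 0.13 from GFP- cells (adjusted p = 0.312). Kcnk2, a stretch-sensitive one, was 0.51 ± 0.11 log2 higher in CM than in CF (adjusted p = 0.000648) and 0.13 ± 0.11 from GFP- cells in 4-week iCMs (adjusted p = 0.403). Of these 5 genes, 4 were higher in CM than in CF (19.6% of all genes).

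Counted together, the 23 measured genes of the cardiac currents were mostly a difference of CM. In CM against CF 16 were higher and 1 lower, with a median of 0.78 log2, beside 0.03 over all genes, of which 19.6% were higher and 21.5% lower. In 4-week iCMs against GFP- cells 6 were higher and 1 lower (median 0.14, beside 0.05, with 17.2% and 17.1% of all genes). In 2-week iCMs against GFP- cells 5 were higher and 1 lower (16.2% and 18.4% of all). Against CM, 4-week iCMs had 1 higher and 15 lower (median -0.51, beside -0.01, with 19% and 16.1% of all genes), and 2-week iCMs 0 higher and 16 lower (median -0.56, with 22.7% and 19.4% of all). Of 6 measured genes of the pump that restores the potassium gradient, 2 were higher and 1 lower in 4-week iCMs than in GFP- cells (17.2% and 17.1% of all genes). Its beta subunit Atp1b1 was higher in 4-week iCMs than in GFP- cells by 1.23 ± 0.13 log2 (adjusted p = 2.29e-07) and was not called against CM (-0.22 ± 0.13, adjusted p = 0.222) or CF (0.04 ± 0.13, adjusted p = 0.873). GFP- cells at 4 weeks were themselves 1.19 ± 0.13 log2 lower than CF in Atp1b1 (adjusted p = 2.43e-06). Atp1b2 and the pump regulator Fxyd1 stayed below CM by 2.03 ± 0.12 and 3.35 ± 0.10 log2 (adjusted p = 7.11e-11 and 3.8e-15). The lower gene was Fxyd5, which averaged 9.73 ± 0.17 log2 in 4-week iCMs against 12.57 ± 0.06 in 4-week GFP- cells. Atp1a4 was the only alpha subunit among the 6, and its mean of 6.03 log2 in 4-week iCMs was not above background.

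Among members outside those currents, Kcnc4, Kcna6 and Kcnma1 were called above GFP- cells, CM and CF in iCMs at both times. Kcnc4, a fast voltage-gated pore, read 9.0, 8.94 and 9.30 log2 in 4-week iCMs and 8.96, 9.06 and 9.28 in 2-week iCMs, against 7.42, 7.40 and 7.31 in 4-week GFP- cells and 7.34, 7.52 and 7.38 in 2-week GFP- cells. CM arrays read 7.08, 7.26 and 7.20 log2 and CF arrays 7.18, 6.91 and 6.89. The lowest iCM array was thus above the highest of the others by over 1 log2. Against GFP- cells the difference was 1.70 ± 0.11 log2 at 4 weeks (3.25-fold, adjusted p = 1.35e-10) and 1.69 ± 0.11 at 2 weeks (adjusted p = 1.84e-10), and against CM 1.90 ± 0.11 at 4 weeks (adjusted p = 2.9e-11). Kcna6, a delayed rectifier pore of neurons, read 7.16, 7.16 and 7.41 log2 in 4-week iCMs and 7.74, 8.27 and 8.06 in 2-week iCMs, against 6.14, 6.0 and 6.42 in CM. It was 1.06 ± 0.14 log2 above CM at 4 weeks (adjusted p = 2.34e-06), 1.84 ± 0.14 at 2 weeks (adjusted p = 7.86e-10), and fell by 0.78 between the times (adjusted p = 0.000982).

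Kcnma1, the pore of the large-conductance calcium-activated channel, known for relaxing smooth muscle, varied more between arrays. It read 7.63, 7.80 and 8.50 log2 in 4-week iCMs and 7.59, 6.59 and 7.21 in 2-week iCMs, with 5.97 to 6.10 in 4-week GFP- cells, 5.93 to 6.11 in CM and 5.91 to 6.11 in CF. It was at least 3.53-fold higher than GFP- cells at 4 weeks (adjusted p = 1.41e-07), and than CM (adjusted p = 1.17e-07). The gain of 0.85 ± 0.20 log2 between 2 and 4 weeks (adjusted p = 0.0085) was lost without replicate 3 of the 4-week iCMs (0.59, adjusted p = 0.0553) and when only these groups were fitted (0.0798). A second probe set for Kcnma1, dimmer and not used, stood at 5.47 log2 in 4-week iCMs, 5.53 in 2-week iCMs and 5.55 in CF, all below the limit. Of the accessory subunits, Kcnmb4 rose in 4-week iCMs against GFP- cells (0.47 ± 0.11 log2, adjusted p = 0.00165), and the other 3 were not called in that comparison. Smooth muscle and pericyte markers were higher in 4-week iCMs than in GFP- cells in 6 of 10 genes, at 8.42 to 8.47 log2 against 7.56 to 7.74, and mesothelial markers in 6 of 8, at 8.99 to 9.19 against 7.87 to 8.12. The former markers stood at 8.89 to 9.15 log2 in CM and 8.23 to 8.51 in CF. The latter stood at 7.41 to 7.48 log2 in CM and 7.96 to 8.31 in CF. The part of either set of markers in the levels of Kcnc4, Kcna6 and Kcnma1 was not tested.

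Kcnh7, a voltage-gated pore related to Kcnh2, rose in iCMs and was high in CM. It read 7.83, 8.02 and 8.09 log2 in 4-week iCMs and 6.45, 6.88 and 6.63 in 2-week iCMs, against 6.0, 6.11 and 6.16 in 4-week GFP- cells and 5.99, 5.76 and 6.07 in 2-week GFP- cells. The CM arrays read 7.63, 8.17 and 8.13 log2, overlapping the 4-week iCMs, and the CF arrays 5.78, 5.94 and 5.81. It was at least 3.54-fold higher than GFP- cells at 4 weeks (adjusted p = 5.05e-10) and gained 1.33 ± 0.13 log2 between 2 and 4 weeks in iCMs (adjusted p = 4.94e-06). The annotation places Gca over the same locus, and whether the probe set of Kcnh7 also reads that gene was not tested. Kcnf1, a silent modifier pore that was picked after its values were seen, rose at both times against GFP- cells, at least 1.58-fold at 4 weeks (adjusted p = 1.22e-05) and by 0.74 ± 0.10 log2 at 2 weeks (adjusted p = 4.23e-06). In 2-week iCMs it was also above CM, by 0.53 ± 0.10 log2 (adjusted p = 0.000155). Of the 35 voltage-gated pores, 11 were higher and 0 lower both in 4-week iCMs against GFP- cells and in CM against CF. In these comparisons 17.2% and 19.6% of all genes were higher, and 17.1% and 21.5% lower.

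**Figure D3:**
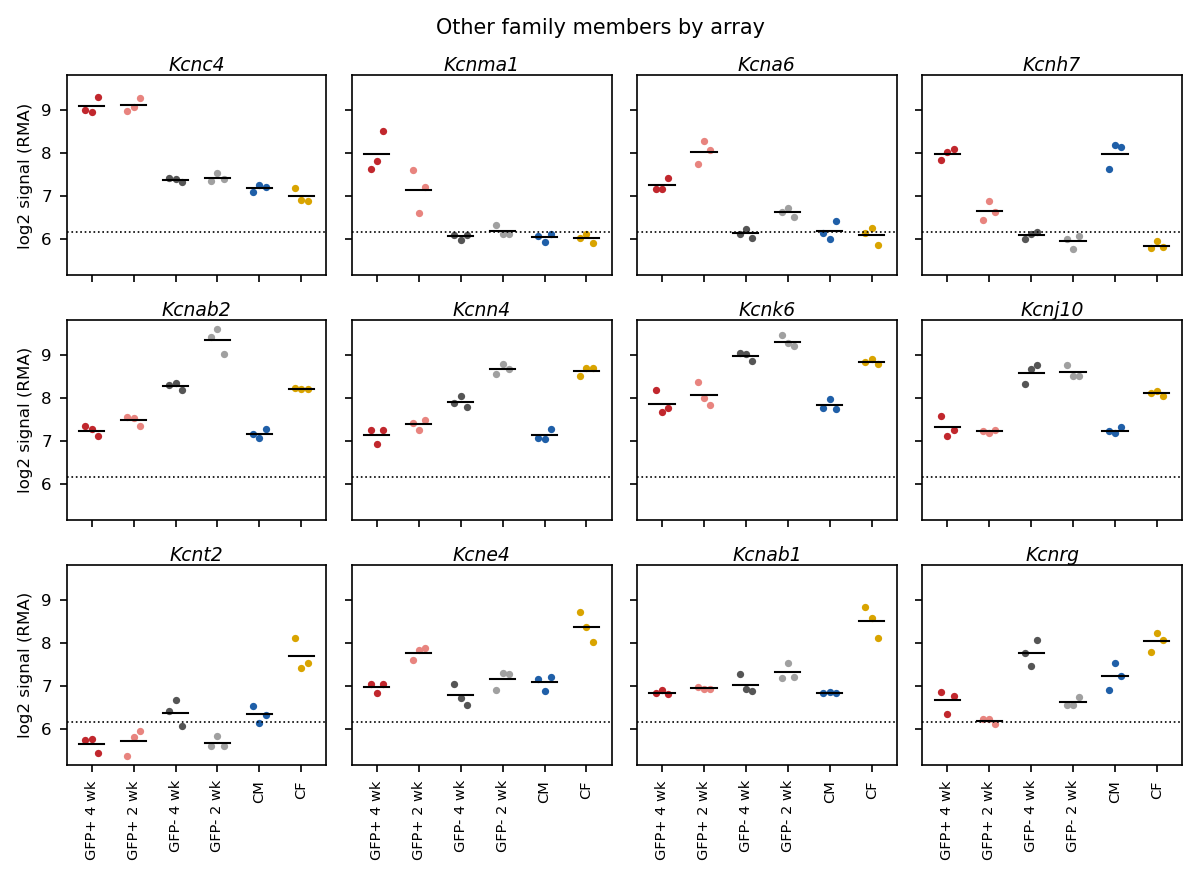
Log2 signal per array (points) and group mean (bars) for 12 members, those with the widest range of group means outside the cardiac currents (without Kcnj15) and Kcnab1, in GFP+ iCMs and GFP- cells at 4 and 2 weeks, CM and CF, with the background limit of 6.157 log2 dotted. The top row is high in iCMs, the middle row is high in GFP- cells and CF, and the bottom row is highest in CF except where Kcnrg in 4-week GFP- cells overlaps it.

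Kcnn4, Kcnk6, Kcnk13 and Kcnj10 had lower group means in iCMs and CM than in GFP- cells and CF. Kcnn4, the intermediate-conductance calcium-activated channel of blood cells, read 7.26, 6.92 and 7.24 log2 in 4-week iCMs, against 7.87, 8.03 and 7.78 in 4-week GFP- cells, and 7.07, 7.03 and 7.28 in CM, against 8.50, 8.70 and 8.68 in CF. CM were 1.5 ± 0.11 log2 below CF (adjusted p = 5.55e-10) and 4-week iCMs 0.75 ± 0.11 below GFP- cells (adjusted p = 1.48e-05). Kcnk6, a background channel, averaged 7.86 ± 0.27 log2 in 4-week iCMs, against 8.97 ± 0.10 in GFP- cells (adjusted p = 1.16e-06). Kcnk13, another, was lower by 0.94 ± 0.09 log2 (adjusted p = 5.93e-08), and Kcnj10, an inward rectifier best known from glia, by 1.27 ± 0.12 (adjusted p = 3.13e-08). Kcna3, the pore of lymphocytes and macrophages, had its highest mean in 2-week GFP- cells (8.07 log2, against 7.59 in CF) and was lower in iCMs than in GFP- cells at 2 weeks (-0.46 ± 0.11 log2, adjusted p = 0.00153) and differed by -0.12 ± 0.11 log2 at 4 weeks (adjusted p = 0.454). Of the 4 channels listed for immune cells, 3 were lower in CM than in CF (21.5% of all genes), 3 in 4-week iCMs than in GFP- cells (17.1% of all) and 4 in 2-week iCMs than in GFP- cells (18.4% of all). Macrophage markers were lower in the same comparisons in 15 of 15 genes, with a median difference of -5.01 log2 in CM against CF and of -3.02 in 4-week iCMs against GFP- cells, and Adgre1, Msr1 and Itgam were below the limit in CM. In GFP- cells from 2 to 4 weeks, 2 of the 4 channels were lower (10.2% of all genes), as were 3 of the 15 macrophage markers. Kcnn4 averaged 8.67 log2 at 2 weeks and 7.89 at 4 weeks there. The part of macrophage content in these differences was not tested.

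Kcnab2, an accessory beta subunit, had its highest arrays in 2-week GFP- cells: 8.29, 8.35 and 8.18 log2 in 4-week GFP- cells and 9.40, 9.60 and 9.01 in 2-week GFP- cells, against 8.22, 8.19 and 8.19 in CF. It was 1.14 ± 0.12 log2 above CF at 2 weeks (adjusted p = 8.7e-07) and fell by 1.06 in GFP- cells by 4 weeks (adjusted p = 4.38e-06). In iCMs it was 1.04 ± 0.12 log2 lower than in GFP- cells at 4 weeks (adjusted p = 4.98e-07) and 1.87 ± 0.12 lower at 2 weeks (adjusted p = 1.35e-10). Nphp4 lies over the same locus in the annotation. In GFP- cells at 4 against 2 weeks, 3 of 15 macrophage markers were lower and 0 higher, with levels of 12.01 to 12.14 log2 at 4 weeks and 12.10 to 12.12 at 2 weeks. Their part in the Kcnab2 differences was not tested.

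Kcnab1, Kcnt2 and Kcne4 were highest in CF, with no overlap with any other array. Kcnab1 read 8.82, 8.56 and 8.11 log2 in CF, above all 15 other arrays, and was lower by 1.66 ± 0.14 in 4-week iCMs (adjusted p = 7.98e-09), by 1.47 ± 0.14 in 4-week GFP- cells (adjusted p = 2.95e-07) and by 1.67 ± 0.14 in CM (adjusted p = 3.8e-09). Kcnt2, a sodium-activated pore, averaged 5.65 ± 0.18 log2 in 4-week iCMs, 5.71 ± 0.30 in 2-week iCMs, 6.38 ± 0.30 in 4-week GFP- cells, 5.68 ± 0.14 in 2-week GFP- cells, 6.34 ± 0.20 in CM and 7.69 ± 0.37 in CF. It was at least 2.89-fold lower in 4-week iCMs than in CF (adjusted p = 1.9e-08). Kcne4, an accessory subunit that damps voltage-gated pores, read 8.71, 8.36 and 8.02 log2 in CF and was lower by 1.40 ± 0.16 in 4-week iCMs (adjusted p = 5.38e-07) and by 1.59 ± 0.16 in 4-week GFP- cells (adjusted p = 6.43e-07). In 2-week iCMs it read 7.59, 7.84 and 7.87 log2 and fell by 0.81 ± 0.16 to 4 weeks (adjusted p = 0.00249). These falls were measured in GFP- cells as well as in iCMs. Fibroblast markers were also lower than in CF, where they stood at 10.87 to 11.23 log2. They stood at 8.36 to 8.41 log2 in 4-week iCMs, 8.79 to 9.15 in 4-week GFP- cells and 9.67 to 9.98 in CM. Kcnab1 averaged 6.84, 7.03 and 6.83 log2 in these groups, and Kcne4 6.96, 6.78 and 7.08, so neither followed the order of the markers. The part of fibroblast content in these differences was not tested.

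Kcnrg, whose product holds voltage-gated pores back, was called higher at 4 than at 2 weeks in GFP- cells. It read 7.75, 7.46 and 8.05 log2 in 4-week GFP- cells, against 6.56, 6.56 and 6.73 in 2-week GFP- cells (1.13 ± 0.16, adjusted p = 7.38e-05), and 6.86, 6.35 and 6.77 in 4-week iCMs, against 6.23, 6.22 and 6.10 in 2-week iCMs. The rise of 0.475 log2 in iCMs was not called. The change in iCMs minus that in GFP- cells, -0.66 ± 0.23 log2, was not called either (adjusted p = 0.137). CF arrays read 7.79, 8.22 and 8.07 log2. The locus overlaps Trim13, and whether the probe set also reads that gene was not tested. Kcnj15, an inward rectifier of epithelia, had the largest fall of the 92 members between 2 and 4 weeks in iCMs: 7.10, 7.11 and 6.92 log2 at 4 weeks, against 8.40, 8.07 and 8.47 at 2 weeks (-1.27 ± 0.12, adjusted p = 4.49e-06). At 2 weeks it exceeded GFP- cells by 1.09 ± 0.12 log2 (adjusted p = 4.57e-07) and CM by 1.55 ± 0.12 (adjusted p = 2.33e-09). The 4-week excess over GFP- cells, 0.32 ± 0.12 log2 (adjusted p = 0.0497), was lost under 8 of 14 alternatives, with adjusted p from 0.0517 to 0.181 in those, among them leaving out iCM replicate 1 or 2 or GFP- replicate 1 or 3.

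From 2 to 4 weeks 9 members were called in iCMs (9.78%, against 11.5% of all genes), 6 higher and 3 lower (4.29% and 7.24% of all). In GFP- cells 13 were called (14.1%, against 17.4% of all), 3 higher and 10 lower (7.16% and 10.2% of all). With array weights, the counts over time were 26 in iCMs and 26 in GFP- cells. Shares of all genes were not counted under alternative settings, so the counts given for them here have none beside them. The GFP- count was 8 without GFP- replicate 3 of 2 weeks or replicate 1 or 2 of 4 weeks. The change in iCMs differed from that in GFP- cells for 5 members (5.43%, against 3.94% of all), 4 upward and 1 downward (1.86% and 2.08% of all), a count that was 20 with array weights, 2 without iCM replicate 3 of 2 weeks, and 3 without GFP- replicate 1 of 2 weeks or replicate 1 or 2 of 4 weeks. GFP- cells differed from CF in 8 members at 4 weeks (8.7%, against 11.5% of all), 3 higher and 5 lower (5.79% and 5.7% of all). At 2 weeks they differed in 20 (21.7%, against 22.7% of all), 13 higher and 7 lower (13.8% and 8.93% of all). With array weights these counts were 14 at 4 weeks and 31 at 2 weeks. Those at 2 weeks included Kcnk6, Kcnk13, Kcna3 and Kcnj10, each higher by 0.37 to 0.48 log2, where the call of Kcnk6 was lost without GFP- replicate 1 (adjusted p = 0.076) or CF replicate 3 (0.0518).

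CM against CF and iCMs against GFP- cells share no arrays, so their calls were set side by side. Of the 18 members higher in 4-week iCMs than in GFP- cells, 9 were also higher in CM than in CF, which is 50% of the first list and 34.6% of the 26 in the second. Over all genes the same shares were 46.9% and 41.2%. These were Kcna4, Kcnd2, Kcnf1, Kcnh2, Kcnh7, Kcnj3, Kcnj5, Kcnj12 and Kcnmb4. Of the 8 lower members, 7 were also lower in CM than in CF, 87.5% of the first list and 63.6% of the second, and the other was Kcnj2. Over all genes these shares were 66.9% and 53.1%. Kcnj15 was called in opposite directions. At 2 weeks 8 of 15 higher members (53.3%, and 30.8% of the 26) and 6 of 9 lower ones (66.7%, and 54.5% of the 11) were shared, and Kcne4 and Kcnj15 were called in opposite directions. Over all genes the shares at 2 weeks were 41% and 33.8% for higher calls and 57.8% and 49.5% for lower ones. Between the iCM comparisons of 4 and of 2 weeks, 13 higher calls (72.2% and 86.7% of the lists) and 7 lower calls (87.5% and 77.8%) were shared and 0 were opposite. Over all genes these shares were 69.7% and 74.1% for higher calls and 78.2% and 72.6% for lower ones.

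**Figure D4:**
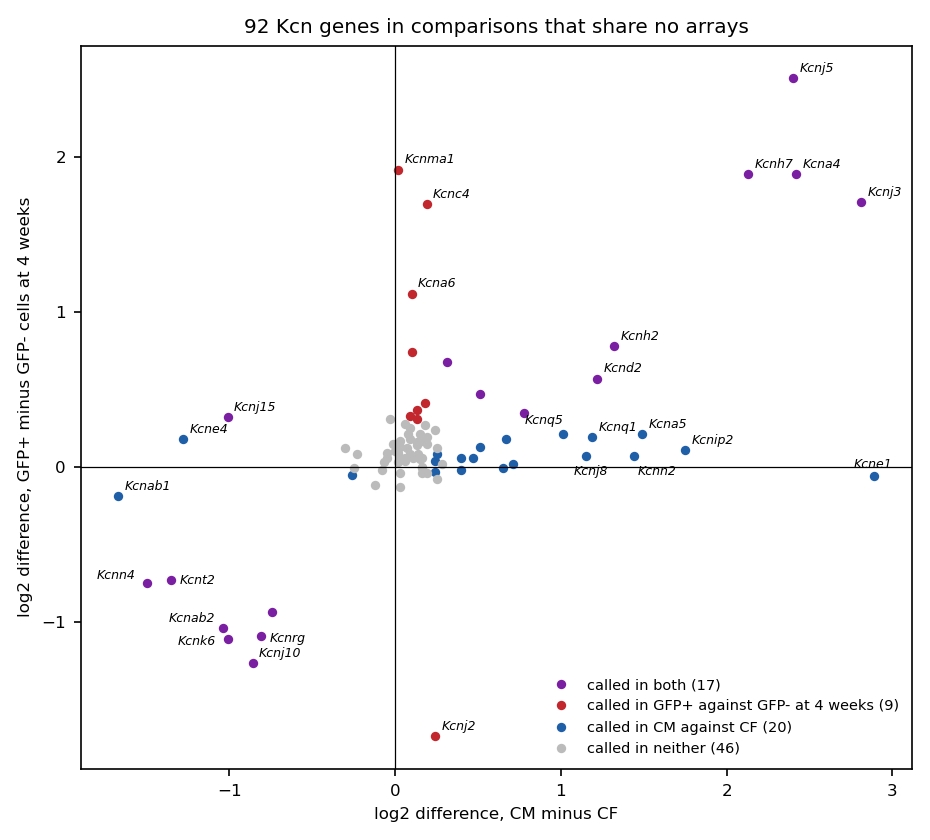
Log2 difference of CM minus CF (horizontal) and of GFP+ iCMs minus GFP- cells at 4 weeks (vertical) for the 92 members, coloured by where they were called and named where either difference is at least 1 log2. Calls in both number 17, in iCMs against GFP- cells alone 9, in CM against CF alone 20 and in neither 46. Kcne1, Kcnip2, Kcnn2 and Kcna5 lie along the horizontal axis, and Kcnc4, Kcnma1 and Kcnj2 along the vertical one.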

How the data were processed

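Per the labels, the PicoPure kit gave the RNA and the MessageAmp II-biotin kit the labelled target. Each deposited number is a log2 value that the authors computed with RMA, per the submitters' processing notes, a method that corrects background, normalizes arrays to each other and condenses probes into probe sets. Its version and the probe build are not given in the sources used here. All 18 columns matched a sample, with 0 left over and 0 missing values.

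Of 28682 probe sets, 21755 named 1 gene, 1592 several and 5335 none in the platform annotation, and only the first were used. With 1 probe set per gene (highest mean over the 18 arrays) 19912 genes remained. All 92 Kcn symbols matched RefSeq. Some listed genes are not reported here. Probe sets whose locus overlaps another gene can carry its signal, and levels of different probe sets were not compared.

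limma 3.58.1 under R 4.3.3 (lmFit, contrasts.fit and eBayes) fitted each gene over the 18 arrays by group alone, with 12 residual degrees of freedom and a prior of 6.96 degrees and 0.131 log2 SD. P-values were two-sided, adjusted by Benjamini-Hochberg over all 19912 genes within each comparison, and called under 0.05. The fit was tested on simulated data with known differences. Errors of differences are SE, errors of means SD, with n = 3 arrays in each group. Named genes are the members of the cardiac current lists, the 12 other members with the largest range of group means, and called members of the other lists. Kcnf1, Kcne3, Kcnq5, Kcne1l and Kcng2 were named after their values were seen. The members and lists were chosen with earlier results of these data known. Alternatives were other normalizations, array weights, an intensity trend, fits of only the groups compared, a filter on dim genes, all probe sets, the replicate number as a block, and leaving out each replicate.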

Additional observations from a re-analysis of the deposited data

Results flagged for a closer look

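For 5 members the change from 2 to 4 weeks in iCMs differed from the change in GFP- cells by the test of that difference (limma interaction, change in iCMs minus change in GFP- cells, n = 3 arrays in each of the 4 groups). Kcnh7 gained 1.33 log2 in iCMs and 0.15 in GFP- cells, a difference of 1.18 ± 0.19 (SE, adjusted p = 0.00101). Its means in GFP- cells, 6.09 log2 at 4 weeks and 5.94 at 2 weeks, were both under the background limit, so the change there, and with it the size of the difference, was not measured above background. Kcnab2 changed by -0.24 log2 in iCMs and by -1.06 in GFP- cells, a difference of 0.83 ± 0.17 (adjusted p = 0.00631). Kcnj15 changed by -1.27 log2 in iCMs and by -0.50 in GFP- cells, a difference of -0.77 ± 0.17 (adjusted p = 0.0147), and the call was lost without replicate 3 of the 2-week iCMs (-0.69, adjusted p = 0.0503). Kcne3, an accessory subunit of voltage-gated channels, changed by 0.19 log2 in iCMs and by -0.52 in GFP- cells, a difference of 0.70 ± 0.18 (adjusted p = 0.0284). Kcnj3 gained 1.18 log2 in iCMs and 0.04 in GFP- cells, a difference of 1.14 ± 0.31 (adjusted p = 0.041). The call of Kcnj3 was lost under 14 of 20 alternatives, with adjusted p of up to 0.117 (without replicate 1 of the 4-week iCMs). It was held without replicate 3 of the 4-week iCMs, its lowest array, and without replicate 2 of the 2-week iCMs, its highest. The cause of these differences was not tested.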

How the results depend on the processing

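With 3 arrays a group, small differences of dim probe sets could not be measured, and a fall below 6.157 log2 is only a bound. Counts of called members stayed within 1.5 times the reported ones under the alternatives run, with these exceptions. On leaving out an array, the exceptions were the counts for GFP- cells over time and for the difference in time change, with ranges in the next paragraph. With array weights they were 26 for iCMs at 4 against 2 weeks, 26 for GFP- cells at 4 against 2 weeks, 31 for 2-week and 14 for 4-week GFP- cells against CF, and 20 for the difference in time change. Weights ran from 0.331 to 3.77 between arrays of 3 per group. When only the groups compared were fitted, the GFP- count over time was 8. The difference in time change gave 3 calls with cyclic loess normalization and 8 once dim genes, those whose mean signal lay under the 25th percentile, were left out. The cause of these shifts was not tested. Shares of all genes called were not counted under the alternatives, here or in the next paragraph.

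Leaving out 1 array at a time gave 31 to 36 calls for CM against CF, 27 to 31 for 2-week and 26 to 29 for 4-week iCMs against CF, 21 to 23 for iCMs against GFP- cells at 2 weeks and 21 to 26 at 4 weeks, and 8 to 10 for iCMs over time. It gave 8 to 14 for GFP- cells over time, 29 to 34 for 2-week and 24 to 29 for 4-week iCMs against CM, 14 to 22 for 2-week and 7 to 8 for 4-week GFP- cells against CF, and 2 to 6 for the difference in time change. Of the single-gene values recomputed, 5845 kept direction and side of the threshold, 100 lost a call, 84 gained one and 1 reversed. The reversal was Kcnma1 in 2-week GFP- cells against CF, -0.39 log2 (adjusted p = 0.0355) when its other, dimmer probe set was read. Same-number deviations correlated at a median r of -0.002, different numbers at 0.001, and no comparison had every same-number pair above 0.1. For iCMs at 4 against 2 weeks the pairs gave 0.454, 0.345 and 0.084. For iCMs against GFP- cells at 2 weeks they gave 0.27, 0.378 and -0.301. So few arrays cannot exclude a pairing by replicate number. With the replicate block 36 members were called in CM against CF and 7 in the difference in time change.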

Other observations

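Some members outside the cardiac lists were also higher in CM and were named after their values were seen. Kcnq5, a voltage-gated pore of muscle and neurons, read 7.44, 7.23 and 7.29 log2 in 4-week iCMs, against 6.99, 6.84 and 6.74 in CF (0.47 ± 0.10, SE, adjusted p = 0.000664), and 7.86, 7.79 and 7.96 in CM, against the same CF arrays (1.01 ± 0.10, adjusted p = 2.36e-08). Against 4-week GFP- cells it differed by 0.21 ± 0.10 log2 (adjusted p = 0.0972). Kcne1l, an accessory subunit on the X chromosome, was higher in CM than in CF by 0.65 ± 0.14 log2 (adjusted p = 0.000977) and was lower in 4-week iCMs than in CM by 0.57 ± 0.14 (adjusted p = 0.00367). Kcng2, a silent modifier pore of heart, was higher in CM than in CF by 0.40 ± 0.12 log2 (adjusted p = 0.00828).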
